A study of Mus musculus with 4 samples.

Results

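The 9 genes described here are the EGR factors Egr1, Egr2 and Egr3, the NR4A receptors Nr4a1, Nr4a2 and Nr4a3, and the immediate early response genes Ier2, Ier3 and Ier5. They were chosen by symbol, and 9 of 9 had an entry among the 23420 gene symbols counted. The material was ventricular apex from hearts of wild-type C57BL/6J mice, an inbred laboratory strain, labelled as whole-heart tissue, male and 12 weeks old, with no treatment named. The series holds 4 libraries of polyadenylated RNA in 1 group with no control, so genes were compared with each other inside each library and libraries with each other. The labels do not state that each library came from a different animal, and p-values measure only the spread between these samples, which may be technical.

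Immediate early genes are transcribed within minutes of a stimulus from factors that the cell already holds. EGR proteins bind GC-rich DNA through zinc fingers and are induced through serum response factor with its ETS partners, and NR4A proteins are orphan nuclear receptors that respond to cAMP, calcium and stress. In the heart both families are known to respond to stretch, adrenergic stimulation and ischaemia. The IER genes share a name from their early induction: Ier2 and Ier5 encode related nuclear proteins and Ier3 encodes a small regulator of cell survival.

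Libraries held 10523709 to 15359296 gene counts, and levels are counts per 1000000 of these (CPM). A count of 0 allows up to 3 counts, or 0.195 to 0.285 CPM depending on the library. All pairs of libraries differed by more than counting error, with a chi-square per degree of freedom of 2.22 for libraries 1 and 4 and 6.81 to 12.6 for the other pairs. The ribosomal RNA precursor Rn45s took 11.9 to 14.1% of counts. Libraries 2 and 3 went against their label: Xist, made from an inactive X chromosome, had 5, 1897, 1806 and 19 counts in libraries 1 to 4. The Y-linked genes showed the opposite, with 341, 0, 1 and 437 counts for Ddx3y and 169, 0, 1 and 195 for Kdm5d. Eif2s3y gave 163, 0, 0 and 201 counts, and 43, 0, 0 and 59 were from Uty. Values below are therefore given per library. Cardiomyocyte markers were high in all 4 libraries, with Myh6 at 46666 to 56973 CPM, Tnnt2 at 9833 to 10348 CPM and Actc1 at 9257 to 9560 CPM.

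Together the 9 genes held 183, 115, 138 and 176 CPM in libraries 1 to 4, a mean of 153 ± 32.3 (SD, n = 4). The sum was lowest in library 2 and 1.59-fold higher in library 1. Egr1 gave 34.6% of the mean sum, Ier3 25.2%, Ier5 17%, Nr4a1 11.5% and Ier2 8.89%, while Egr2, Egr3, Nr4a2 and Nr4a3 gave 0.402 to 1.09% each. The genes therefore fell into 5 that averaged 13.6 to 53.0 CPM and 4 that averaged 0.616 to 1.67 CPM, with none between.

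**Figure D1:**
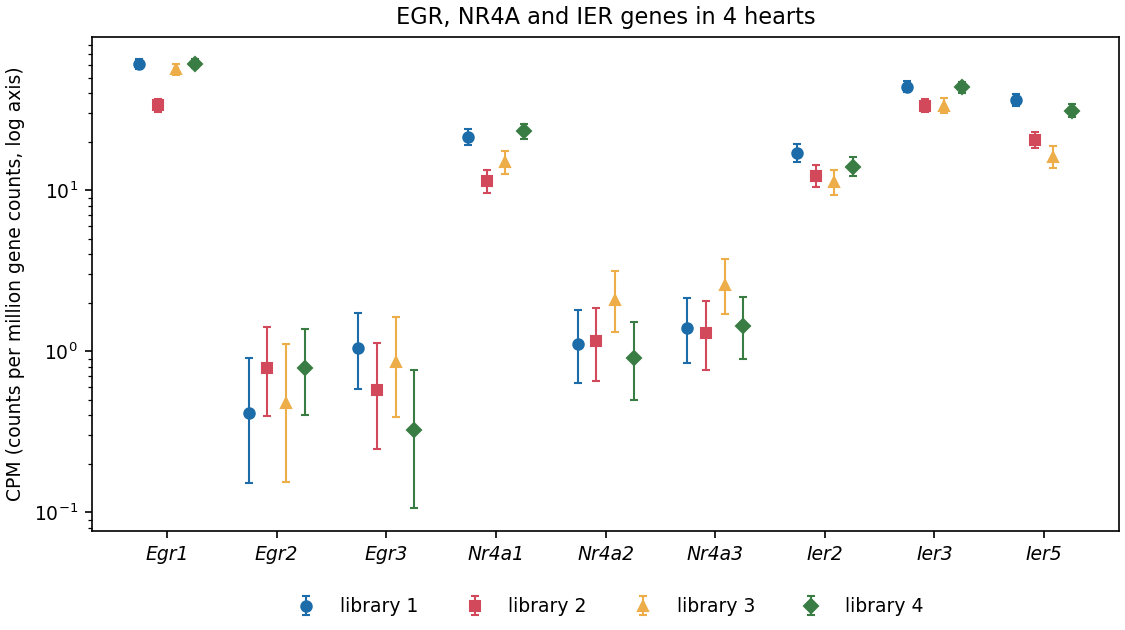
Level of each gene in CPM (log axis) in libraries 1 to 4, with exact Poisson limits of 95% that cover counting error only. Egr1, Nr4a1, Ier2, Ier3 and Ier5 sit above 10 CPM in each library, while Egr2, Egr3, Nr4a2 and Nr4a3 stay under 3 CPM with wide limits.

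Egr1, the best studied EGR factor and an activator of growth factor and clotting genes in vessels (chromosome 18, 34859823 to 34864984, mm10), had 877, 470, 593 and 936 counts, or 60.9, 33.8, 56.3 and 60.9 CPM in libraries 1 to 4. Library 2 stood alone below the others, which lay within 1.08-fold of each other. Library 4 exceeded library 2 by 1.80-fold, with 95% counting limits of 1.61 to 2.02. These limits cover counting error only and the libraries were picked as the extremes, here and for each gene below, so they are descriptions. Egr2 (chromosome 10, 67535475 to 67542188), needed for myelination and hindbrain patterning, had 6, 11, 5 and 12 counts. Egr3 (chromosome 14, 70077203 to 70082614), a factor of muscle spindles and lymphocytes, had 15, 8, 9 and 5 counts. At these counts Egr2 and Egr3 ranked the libraries differently from Egr1 and from each other, and for Egr2 the limits on highest over lowest library, 0.643 to 6.25, included no difference. For Egr3 library 1 exceeded library 4 by 3.2-fold (1.10 to 11.2), the widest range of the 9 genes, on 15 against 5 counts. Within the family Egr1 took 97.7, 96.1, 97.7 and 98.2% of counts, and the exact binomial limits of all 4 libraries overlapped. The family's remaining gene, Egr4, had 0 counts in all 4 libraries. It belongs to the list of partners described below.

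Nr4a1, also called Nur77 and the member of its family most tied to muscle glucose use (chromosome 15, 101254269 to 101274795), had 307, 158, 157 and 356 counts, or 21.3, 11.4, 14.9 and 23.2 CPM. Libraries 1 and 4 were high and library 2 lowest, at a distance from library 4 of 2.04-fold (counting limits 1.69 to 2.48). Nr4a2 (chromosome 2, 57106830 to 57124003), known for its part in dopamine neurons, had 16, 16, 22 and 14 counts, or 1.11, 1.15, 2.09 and 0.911 CPM. Nr4a3 (chromosome 4, 48045153 to 48086447), also called Nor1, had 20, 18, 27 and 22 counts, or 1.39, 1.29, 2.57 and 1.43 CPM. Both were highest in library 3, where Nr4a1 was below its values in libraries 1 and 4. On counts this low, library 3 exceeded the next highest library by 1.82-fold for Nr4a2 and 1.79-fold for Nr4a3, and the counting limits of both ratios, 0.912 to 3.70 and 0.982 to 3.30, included no difference. Against the lowest library the ratios were 2.29 (1.12 to 4.85) for Nr4a2 and 1.98 (1.05 to 3.82) for Nr4a3. Nr4a2 and Nr4a3 were 2 of the 7 tested members and were highest in library 3, as were 22.9% of all 12358 tested genes.

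The share of Nr4a1 in its family was lowest in library 3. Nr4a1 took 89.5, 82.3, 76.2 and 90.8% of the family's counts in libraries 1 to 4. The exact binomial limits of library 3, 69.8 to 81.9%, did not overlap those of library 1, 85.8 to 92.5%, or of library 4, 87.5 to 93.5%. Those of library 2, 76.1 to 87.4%, overlapped with library 3 and with library 1, and fell just short of library 4. Binomial limits cover counting error only and each library is a single sample, so these shares are a description with no test of a difference between hearts. Because the shares are taken within a library, they do not depend on its depth or scaling.

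**Figure D2:**
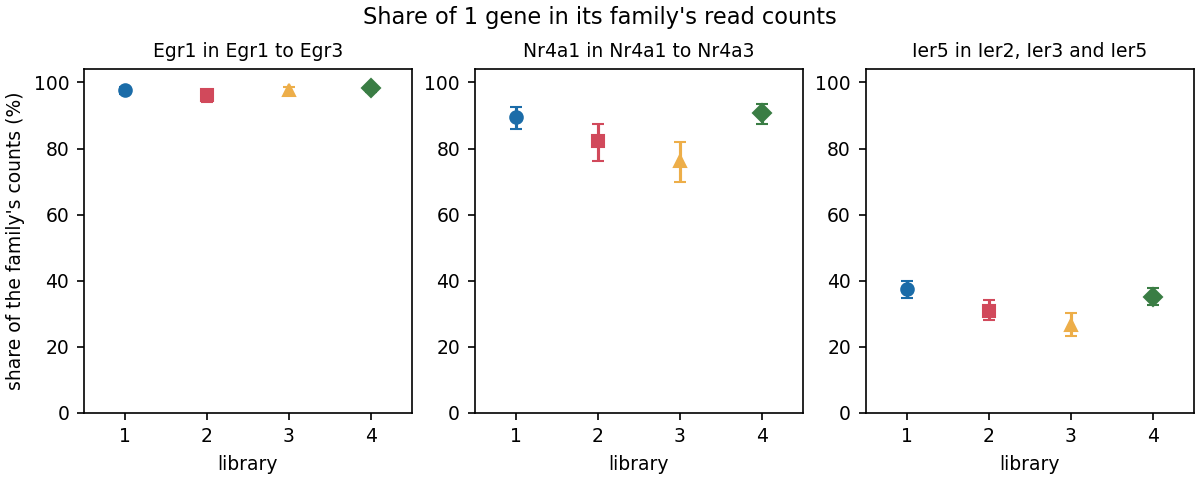
Share of 1 gene in the counts of its family (%) in libraries 1 to 4, with exact binomial limits of 95% that cover counting error only. Egr1 holds 96.1 to 98.2% of EGR counts in each heart, while Nr4a1 ranges from 76.2 to 90.8% of NR4A counts and Ier5 from 26.5 to 37.4% of IER counts, both lowest in library 3.

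Sequence upstream of the start sites is shown for the NR4A genes, whose members did not rank the hearts alike, and for Egr2. RefSeq windows on GRCm38.p6, running from 250 bases before to 50 after a start, were matched for 6 of the 9 genes (Egr2 with 5 start sites, and Nr4a1, Nr4a2, Nr4a3, Ier3 and Ier5 with 1 each), and not for Egr1, Egr3 and Ier2. Sequences run 5′ to 3′ on the gene's strand and are limited to bases outside GENCODE M21 exons. Capitals mark the core of the cAMP response element (TGACG, or CGTCA on the other strand) and, in Egr2, also the CArG box, the core of a serum response element. The Nr4a1 stretch is chr15:101266596-101266845 (plus strand), that of Nr4a2 chr2:57124004-57124253 (minus strand), that of Nr4a3 chr4:48045055-48045152 (plus strand) and that of Egr2 chr10:67537749-67537828 (plus strand).
Nr4a1: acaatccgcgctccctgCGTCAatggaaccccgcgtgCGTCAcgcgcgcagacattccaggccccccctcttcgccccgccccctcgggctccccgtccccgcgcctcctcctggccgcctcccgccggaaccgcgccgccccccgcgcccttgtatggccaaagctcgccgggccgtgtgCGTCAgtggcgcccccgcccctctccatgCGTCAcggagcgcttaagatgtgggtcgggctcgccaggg
Nr4a2: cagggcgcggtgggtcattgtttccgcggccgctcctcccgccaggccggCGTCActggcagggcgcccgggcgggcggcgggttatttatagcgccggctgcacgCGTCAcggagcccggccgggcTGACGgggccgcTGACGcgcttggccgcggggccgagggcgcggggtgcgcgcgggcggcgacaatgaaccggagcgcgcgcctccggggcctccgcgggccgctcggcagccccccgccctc
Nr4a3: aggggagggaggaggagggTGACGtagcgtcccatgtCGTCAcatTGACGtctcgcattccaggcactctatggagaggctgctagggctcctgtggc
Egr2: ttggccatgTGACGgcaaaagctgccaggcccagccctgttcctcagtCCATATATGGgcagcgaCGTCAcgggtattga

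The 3 NR4A windows held 4 such cores each, at -233, -213, -69 and -40 for Nr4a1, at -200, -144, -123 and -111 for Nr4a2 and at -231, -213, -205 and -147 for Nr4a3, counted as the first base of the site relative to the start. The last of these in Nr4a3 lies in a GENCODE exon and is not printed. Of all 32851 windows in the table, 20.8% held at least 1 core and 0.231% at least 4. That share was not matched for base composition, and GC content was 72.3% for Nr4a1, 81.7% for Nr4a2 and 64.7% for Nr4a3. The 3 genes thus share this feature, and a match describes letters and not a bound site.

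Other motifs were searched on both strands in the same windows. The full element TGACGTCA, which holds a core on each strand, was in none of the 10 windows and in 1.79% of all. A CArG box stood in 4 of the 5 Egr2 windows, at -72 in the one shown, with cores at -111 and -55. The windows overlap and 3 of the 4 hold the same box, so that 2 distinct boxes were found, and 1.63% of all windows held one. The EGR site GCGNGGGCG was found at -60 of Nr4a1 and -74 of Nr4a2, overlapping no core, and in 5.55% of all windows. A TATAAA box, present in 13.6% of all windows, occurred at -164 of Nr4a2 on the opposite strand. The NR4A element AAAGGTCA and the AP-1 site TGANTCA, present in 1.51 and 7.81% of all windows, were in none of the 10. Neither Ier3 nor Ier5 held any of the 7 motifs.

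Ier3, also called IEX-1 (chromosome 17, 35821684 to 35822923), had 632, 465, 353 and 670 counts, or 43.9, 33.4, 33.5 and 43.6 CPM in libraries 1 to 4. Libraries 1 and 4 were alike and libraries 2 and 3 were alike, 1.31-fold apart at the extremes (counting limits 1.16 to 1.48). Ier5 (chromosome 1, 155096361 to 155099636), a cofactor of the heat shock response, had 525, 285, 170 and 478 counts, or 36.4, 20.5, 16.2 and 31.1 CPM. It was lowest in library 3, and its range of 2.26-fold (1.89 to 2.70) was the widest among the 5 abundant genes. Ier2 (chromosome 8, 84661331 to 84662852) had 245, 171, 118 and 215 counts, or 17, 12.3, 11.2 and 14 CPM, a range of 1.52-fold (1.21 to 1.90) with the same order of hearts as Ier5. Ier5 took 37.4, 30.9, 26.5 and 35.1% of the summed counts of the 3 IER genes, and its ratio to Ier3 was 0.831, 0.613, 0.482 and 0.713. The ratio of Ier2 to Ier3 moved less, at 0.388, 0.368, 0.334 and 0.321. The ratio of Nr4a1 to Egr1 was 0.350, 0.336, 0.265 and 0.380, lowest in library 3, where Egr1 stood close to libraries 1 and 4 and Nr4a1 did not.

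**Figure D3:**
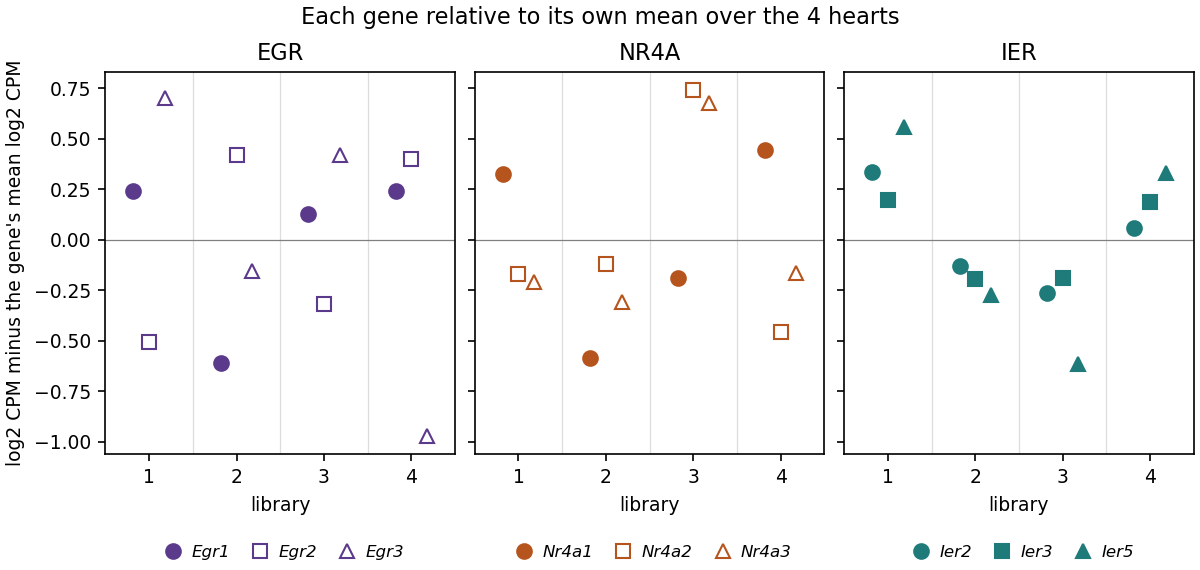
Log2 CPM of each gene minus its own mean over the 4 libraries, in a panel per family, with open symbols for genes averaging under 2 CPM. Egr1, Nr4a1 and the 3 IER genes lie above their mean in libraries 1 and 4 and below it in library 2, while Nr4a2 and Nr4a3 are highest in library 3.

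To compare levels between genes, CPM was divided by the kilobases of exon in GENCODE M21. Per kilobase Ier3 led at 34.1 ± 5.24 CPM, followed by Egr1 at 11.8 ± 2.90, Ier2 at 8.95 ± 1.66, Ier5 at 7.95 ± 2.86 and Nr4a1 at 5.04 ± 1.57 (SD, n = 4 each). Egr1, first by counts, stood below Ier3 because its exons span 4484 bases against 1131 for Ier3. The low genes followed at 0.324 ± 0.130 CPM per kilobase for Nr4a2, 0.279 ± 0.10 for Nr4a3, 0.181 ± 0.0582 for Egr2 and 0.159 ± 0.0713 for Egr3. Among 11674 tested genes with a length, these means stood at percentile 92.3 for Ier3, 78.4 for Egr1, 72.5 for Ier2, 69.7 for Ier5 and 58.1 for Nr4a1, and at 0.788 to 4.44 for the low genes. In GENCODE M21 the exons of the 9 genes share no base with those of another gene.

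The order by level per kilobase was set by means over these same 4 libraries. The counts and p-values below therefore describe it and give it no separate support. Of the 8 pairs of neighbours in this order, 3 held in 4 of 4 libraries: Ier3 over Egr1 (2.94-fold per kilobase), Ier5 over Nr4a1 (1.56-fold) and Nr4a1 over Nr4a2 (15.3-fold). Each reached the smallest p possible with 4 libraries in an exact permutation test that flips signs, two-sided, which rounds to 0.13. Adjusted over the 8 pairs by Benjamini-Hochberg this exact permutation p was 0.333, and the design cannot reach 0.05. Egr1 over Ier2, Ier2 over Ier5, Nr4a2 over Nr4a3 and Nr4a3 over Egr2 held in 3 of 4 libraries, and Egr2 over Egr3 in 2 of 4. The order inside these 5 pairs was not the same in every library, with p from 0.25 to 0.75 by the same exact permutation test. By the longest transcript in place of all exons, Ier5 stood above Nr4a1 in 3 of 4 libraries, Nr4a2 above Nr4a3 in 4 of 4 and Nr4a3 above Egr2 in 2 of 4.

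**Figure D4:**
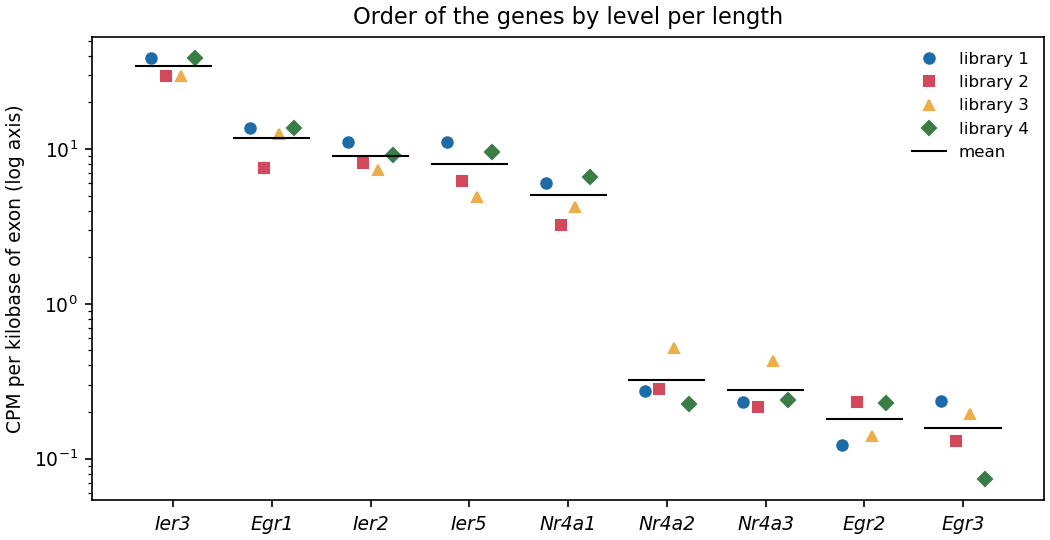
CPM per kilobase of exon (log axis) for the 9 genes in order of their mean, with a point for each library and a bar for the mean. Ier3 stands apart at the top, and a gap of 15.3-fold separates Nr4a1 from Nr4a2.

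Whether these genes varied between hearts more than others of similar abundance was tested with edgeR's quasi-likelihood fit over 12358 genes that averaged at least 1 CPM. Egr2 and Egr3 fell under that level and 7 members were tested. Of the 7, 0 were called at an adjusted p under 0.05, against 0.445% of all tested genes. At an unadjusted p under 0.05 the count was 3, against 6.00% of all, and limma called 0 while DESeq2 had 1, Ier5, as a dispersion outlier, against 1.04% of all. The log2 ratio of a gene's variance to the trend was 4.22 for Ier5 (edgeR, adjusted p = 0.103), 3.88 for Egr1 (edgeR, adjusted p = 0.161) and 3.56 for Nr4a1 (edgeR, adjusted p = 0.231). These 3, which made up the unadjusted count, stood at percentile 98.6 to 99.2 of tested genes. The ratio was 1.95 for Ier3, 1.57 for Ier2, 0.85 for Nr4a2 and 0.81 for Nr4a3, with adjusted p in edgeR from 0.877 to 0.995. The median over the 7 was 1.95, and that over all tested genes -0.23.

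Leaving out a library changed these values where the gene's own pattern rested on it. Without library 2, the log2 variance ratio of Egr1 was -1.83 (edgeR, adjusted p = 0.996), while Ier5 was called, with a ratio of 4.90 (edgeR, adjusted p = 0.028) against 0.559% of all genes. A fit of libraries 1 and 4 alone, the pair that matched its label, was chosen after the data were seen. There, on 1 residual degree of freedom, the ratio was -5.94 for Egr1, -0.57 for Nr4a1 and 2.23 for Ier5. These stood at percentile 10.3, 58.2 and 96.1 of tested genes. Libraries 1 and 4 were already seen to be the most alike pair and the highest 2 for these genes. The ratios therefore follow in part from that choice and are a description only. With no filter on low counts Egr1, Nr4a1 and Ier5 were called (edgeR, adjusted p = 0.00297, 0.00918 and 0.000500), against 1.48% of all genes.

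**Figure D5:**
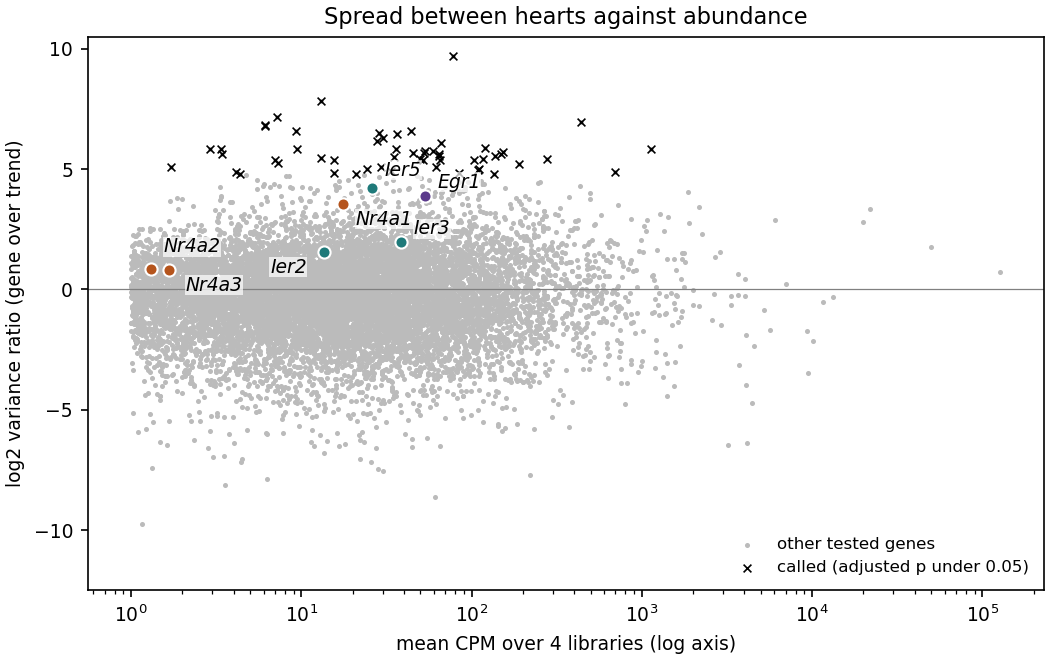
Log2 ratio of each gene's variance between hearts to the trend, against its mean CPM (log axis), for 12358 tested genes, with crosses for the 55 genes called by edgeR and labelled points for the 7 tested members. Ier5, Egr1 and Nr4a1 lie high in the cloud, at percentile 98.6 to 99.2, with other uncalled genes between them and the called genes. Nr4a2 and Nr4a3 lie inside it (1 gene under -12 is not drawn).

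The abundant members shared their highest pair of libraries but not the full order. The highest 2 libraries were 1 and 4 in 5 of 7 tested members, Egr1, Nr4a1, Ier2, Ier3 and Ier5, against 23.7% of all tested genes. Library 2 was lowest for 4 of the 7, Egr1, Nr4a1, Nr4a3 and Ier3, against 30.7%, and library 3 for Ier2 and Ier5, against 33.4%. The highest library reached at least 1.5 times the lowest for 6 of the 7, all but Ier3, against 19.7%. The high values of libraries 1 and 4 were known from earlier results on other immediate early genes when these 9 were chosen, and the split is the same as that of the sex-linked transcripts. The part of that split in the members' values was not tested, and with library 2 and library 3 the only ones that went against their label, sex and any other difference between these pairs of libraries cannot be told apart.

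Genes whose profile over the 4 libraries was most like that of Egr1 and Nr4a1 were named by the root mean square distance between log2(CPM + 1) profiles, each centred on its mean. Nearest to Egr1 was Ptgds, a prostaglandin D synthase, with 490, 285, 459 and 502 CPM at a distance of 0.019, followed by the chemokine-binding receptor Ccrl2 with 18, 10.3, 17.4 and 18.4 CPM, and by Hrct1, Ankrd63 and Gab3 at 0.034 to 0.038. Nearest to Nr4a1 were Ptprr, 2610035D17Rik and Itpripl1 at 0.024 to 0.028, then Csrnp1, itself an immediate early gene, with 32.5, 16.7, 21.6 and 34.7 CPM, and Rbp7 at 0.040. None of these 10 was called more variable (edgeR, adjusted p from 0.1 to 0.945), against 0.445% of all tested genes. These genes were picked as the nearest of all tested genes, so their closeness is a description. Nr4a1 itself ranked 378 in nearness to Egr1, at a distance of 0.184.

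Partners and upstream factors of these genes were read beside all tested genes. Of those, edgeR called 0.445%, limma 0.405% and DESeq2 1.04% as outliers, and 6.00% had an edgeR unadjusted p under 0.05. In lists this short a count of 0 called lies near these shares. Of 10 listed partners and corepressors, 9 were tested and edgeR called 0 (2 at an unadjusted p under 0.05, and 0 by limma and by DESeq2), with a median log2 variance ratio of 0.46. Rxra, the retinoid receptor with which Nr4a1 and Nr4a2 can pair, had 133, 129, 120 and 127 CPM, and the corepressor Ncor1 averaged 214 ± 7.60 CPM (SD, n = 4). Nab1 and Nab2, which repress through EGR proteins and were chosen here after their values were seen, had 12.8, 14.1, 12.4 and 13.9 CPM and 12.6, 14.2, 9.60 and 12.0 CPM. Among 17 upstream factors of the serum, calcium and cAMP response edgeR called 0, as did limma and DESeq2, with 0 at an unadjusted p under 0.05 and a median log2 variance ratio of -0.06. Srf, which binds the CArG box, averaged 171 ± 5.88 CPM, and the calcium-responsive Mef2d and Mef2a 192 ± 4.94 and 84.4 ± 5.86 CPM (SD, n = 4).

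Some other immediate early genes passed the test that the members did not. Of 26 listed and 24 tested, edgeR called 6, namely Fos, Jun, Dusp1, Btg2, Zfp36 and Ctgf, with adjusted p from 0.0118 to 0.0298, against 0.445% of all tested genes. At an unadjusted p under 0.05 the count was 16, against 6.00%. By limma it was 6, and 9 were outliers in the dispersion of DESeq2, against 1.04%. The list's median log2 variance ratio was 3.30, and 14 of the 24 had their highest 2 values in libraries 1 and 4, against 23.7% of all tested genes. The adhesion and growth gene Ctgf had 157, 50.4, 126 and 145 CPM, lowest in library 2 like Egr1, whereas the AP-1 subunit Fos had 17.6, 2.37, 3.14 and 14.8 CPM, low in libraries 2 and 3 alike. Rhob, the most abundant of the list, averaged 148 ± 17.2 CPM (SD, n = 4) and was not called (edgeR, adjusted p = 0.892).

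Listed targets of Egr1 and of the NR4A receptors were examined next. Among the EGR1 targets of vascular cells, whose call count is not given here, 2 are described. Vegfa, the endothelial growth factor, had 266, 362, 347 and 267 CPM, high in libraries 2 and 3 alike, and was not called (edgeR, adjusted p = 0.392). Tgfb1 had 33.2, 32.3, 28.0 and 28.3 CPM. Of 7 NR4A targets known from skeletal muscle edgeR, limma and DESeq2 called 0, against 0.445, 0.405 and 1.04% of all tested genes. At an unadjusted p under 0.05 the edgeR count was 0, against 6.00%, and the median log2 variance ratio was -0.75. With 7 genes a count of 0 lies near these shares. The glucose transporter Slc2a4 stood at 626, 634, 638 and 634 CPM, the glycogen phosphorylase Pygm averaged 1715 ± 55.6 CPM and the enolase Eno3 1638 ± 47.8 CPM (SD, n = 4).

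Cell types other than cardiomyocytes also make these factors, and in tissue RNA fewer cells of a type and less RNA per cell cannot be told apart. Endothelial markers summed to 1076, 1050.3, 1086 and 1093 CPM in libraries 1 to 4, with Cdh5 at 343 to 374 CPM. Kdr, in the same list, was instead highest in libraries 2 and 3, at 204, 240, 269 and 223 CPM. Fibroblast markers summed to 829 to 954 CPM, lowest in library 3, and smooth muscle markers to 342 to 386 CPM, lowest in library 2. Macrophage markers summed to 262, 234, 235 and 266 CPM, highest in libraries 1 and 4 as the abundant members were. Libraries 1 and 4 were the highest 2 for 5 of 7 macrophage, 4 of 7 endothelial and 3 of 4 smooth muscle markers. The same held for 1 of 7 fibroblast, 2 of 7 cardiomyocyte and 0 of 1 tested neutrophil markers. Among all tested genes 23.7% had this pattern. The sums do not show single markers. Cd163, a scavenger receptor of resident macrophages, is named here after its values were seen. It had 29.0, 14.8, 28.6 and 32.0 CPM, with library 2 alone low as for Egr1 (edgeR, adjusted p = 0.134). The more abundant macrophage markers C1qa and C1qb were instead lowest in library 3, at 45.5 and 52.5 CPM. Library 2 was lowest for 4 of 7 macrophage markers, Cd163 among them, against 30.7% of all tested genes. Dcn, a fibroblast proteoglycan, was likewise lowest in library 2, at 254, 180, 246 and 270 CPM, and Col3a1 was highest there, at 263, 325, 213 and 260 CPM. The smooth muscle genes Myh11, at 117, 88.4, 82.5 and 117 CPM, and Tagln, at 37.8, 28.1, 29.4 and 39.7 CPM, were low in libraries 2 and 3, whereas Acta2 was highest in library 3 at 247 CPM. No marker found in the files was at 0 in all libraries. Across the marker lists edgeR and limma called 0, against 0.445 and 0.405% of all tested genes. DESeq2 had 1, among the macrophage markers, against 1.04%, and 0 to 2 a list had an edgeR unadjusted p under 0.05, against 6.00%. The 4 of 5 neutrophil markers in the files summed to 2.29 to 4.31 CPM and cardiomyocyte markers to 85253 to 95976 CPM, highest in library 3. The part of these cells in the members' spread was not tested.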

How the data were processed

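Polyadenylated RNA of 4 mouse hearts was sequenced as single-end libraries that do not keep strand, per the labels' protocols. The authors deposited raw read counts per gene symbol, whole numbers that were not normalized. Per the submitters' processing notes, the build was mm10 and the tools named were HTSeq, TopHat2 2.0.10, Bowtie2, edgeR, TopHat and DESeq. What each did, and with which annotation, is not given in the sources used here. The 5 rows that name no gene held 9.16 ± 0.145% of listed reads (SD, n = 4) and entered neither library sizes nor tests.

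CPM was computed over all gene counts of a library. Spread between libraries was tested with edgeR 4.0.16 in R 4.3.3: an intercept, TMM factors, trended dispersion and a legacy-mode quasi-likelihood fit whose prior was robust. Each gene's variance over the trend was set against an F distribution on 3 and 7.42 degrees of freedom, upper tail, with Benjamini-Hochberg adjustment over 12358 genes of at least 1 CPM. The test was checked on simulated data with planted shifts of 4-fold and 8-fold, of which 91 and 100% were recovered. Shifts as small as the ranges of the tested members, 1.31- to 2.29-fold, were not simulated, so recovery there is not known. Limits of 95% are exact Poisson or Clopper-Pearson limits. Pair ratios used 0.5 added to counts. Alternatives used limma 3.58.1 and DESeq2 1.42.0, other scaling and filters, each library left out, and other gene lengths. GENCODE M21 (GRCm38, the same assembly as mm10) gave lengths and positions, matched by symbol for 11674 of the tested genes.

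The members and gene lists were chosen with earlier results of these data known. Named genes were the 9 members, the called and the 3 most abundant genes of each list, the 5 genes nearest in profile to Egr1 and to Nr4a1, the sex-linked genes and Rn45s, with exceptions stated. Some listed genes, and the call count of the EGR1 target list, are not reported here. Samples form 1 group, numbered as in the titles.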

Additional observations from a re-analysis of the deposited data

Results flagged for a closer look

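A single library stood apart from the other 3 by Dixon's criterion (the gap to the nearest library over the whole range) in 3 of 15 values examined. Chance passes about 1 in 20 such values, and the values are not independent. Egr1 was low in library 2 at 33.8 CPM (gap over range 0.831), and with it the sum of the EGR genes at 35.1 CPM (0.830), both only just past the criterion. Nr4a3 was high in library 3 at 2.57 CPM (0.891), on 27 counts. Library 2 and library 3 are the ones whose sex-linked transcripts went against their label, and the part of that in these values was not tested.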

How the results depend on the processing

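No member was called when sizes came from DESeq2 or from library totals, when the prior was made non-robust, by limma, or in libraries 1 and 4 alone. The count was 1 for dispersion outliers of DESeq2, 3 with no filter, and 0 to 1 with a library left out. Of all genes 55 were called, against 10 with the non-robust prior, 129 with DESeq2, 258 with no filter, 6 in libraries 1 and 4 alone and 39 to 69 with a library left out. The cause was not tested. The log2 variance ratio changed sign with 1 library left out for Egr1 (-1.83 to 4.54, lowest without library 2), Nr4a2 (-2.29 to 1.49) and Nr4a3 (-4.91 to 1.24), both lowest without library 3, and Ier2 (-0.34 to 2.18, lowest without library 1). The -0.34 of Ier2 stood at percentile 52.1 of tested genes. With DESeq2 the ratio is of dispersions, on another scale, and was -0.50 for Nr4a2 and -0.55 for Nr4a3. These stood at percentile 73.7 and 72.7 of tested genes, against 77.1 and 76.5 in the main fit. In libraries 1 and 4 alone the edgeR ratio was -5.94 for Egr1, -0.57 for Nr4a1, -1.73 for Nr4a2, -7.66 for Nr4a3 and -4.50 for Ier3. In that order they stood at percentile 10.3, 58.2, 41.1, 5.78 and 16.9 of tested genes. Libraries 1 and 4, the most alike pair, were picked after the data were seen, so these ratios follow in part from that choice. With a library left out, 3 to 5 of the 8 neighbouring pairs held in every remaining library. By longest transcript, and by principal transcript (added after seeing the data), the count was 3, with Nr4a2 over Nr4a3 in place of Ier5 over Nr4a1. The summed level stayed within 143 to 175 CPM. Library 2 was lowest for 3 members rather than 4 with Rn45s left out of the totals, and 5 members had libraries 1 and 4 as the highest 2 under each scaling, against 20.5% of all genes with TMM. Of the 5 genes nearest to Egr1 and of those nearest to Nr4a1, 3 were shared when 0.1 was added before the log. No paired analysis was possible because the 4 libraries form 1 group. Depth limits Egr2, Egr3, Nr4a2 and Nr4a3, which had 34 to 87 counts over all libraries.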
